A study of Rattus norvegicus with 15 samples.

Results

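The genes described here encode the AMPA receptor, the ionotropic glutamate receptor that carries most fast excitatory transmission in the brain, and proteins bound to it. They are the pore-forming subunit genes Gria1, Gria2, Gria3 and Gria4, the transmembrane AMPA receptor regulatory protein (TARP) genes Cacng2, Cacng3, Cacng4, Cacng5 and Cacng8, and the cornichon gene Cnih2. The rule that picks their probe sets uses the gene symbol. All 10 were found among the 14497 genes with 1 symbol on the array, each with 1 probe set, and all 10 passed the filter on low values that kept 11778 genes.

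RNA came from the nucleus accumbens of male Sprague-Dawley rats from a study of how cocaine craving evoked by cues grows during abstinence. Every rat had an intravenous catheter and 10 days of self-administration, 6 h per day, in which a lever press gave an infusion and a light cue. In the control group (Sal) the infusion was saline, and its labels give neither a withdrawal time nor a test. In the other 4 groups it was cocaine at 0.75 mg/kg per infusion. They were followed by forced abstinence of 1 day (1W) or 30 days (30W), or by the same abstinence and an extinction test of cue-induced cocaine seeking (1C and 30C). Each group had 3 arrays, 15 in all. Whether rats were pooled for an array is not stated, so p-values measure only the spread between these samples. No genetic change is named for any group.

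AMPA receptors are tetramers of the GluA1 to GluA4 subunits that Gria1 to Gria4 encode. GluA2, edited at its RNA, makes the channel nearly impermeable to calcium, so the proportion of GluA1 to GluA2 matters for what a receptor passes. TARPs and cornichons bind the pore-forming subunits, help them to the surface and slow their closing. In the accumbens, medium spiny neurons receive glutamatergic input from cortex, hippocampus, amygdala and thalamus, and receptors lacking GluA2 have been described at their synapses after long withdrawal from cocaine. The array measures messenger RNA and shows neither protein, nor editing, nor receptors at the surface.

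Values below are RMA log2 intensities, on which a difference of 1 is a doubling, and differences are the first group minus the second. The correlation between arrays was 0.9929 to 0.9967. The medium spiny neuron markers Drd1 (9.54 to 10.31), Drd2 (11.21 to 11.88) and Ppp1r1b (11.80 to 12.39) were lowest in 30C replicate 1 and highest in 1W replicate 3. Slc17a7, which loads glutamate into vesicles of cortical projection neurons, was lowest in Sal replicate 1 (7.16) and highest in 30C replicate 1 (12.16). The 25th percentile of an array's values was 5.48 to 5.51 on the 6 day 1 arrays, 5.53 to 5.59 on the 6 day 30 arrays and 5.51 to 5.57 in Sal.

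None of the 10 members changed past the threshold (limma, Benjamini-Hochberg adjusted p under 0.05 over all 11778 genes) in any of the 12 comparisons, nor in the moderated F test over the 5 groups. Over all genes, 0% passed in 11 of the 12 comparisons and in the F test. For 30 days against 1 day, averaged over the test, 0.00849% passed, which is 1 gene. Of the 120 member values, 3 had an unadjusted p under 0.05 (2.5%), against 5.81% of the values of all genes tested (357 to 1531 genes per comparison, and 820 in the F test). The smallest adjusted p of a member in limma was 0.49. In bulk tissue, a lower share of a cell type and less RNA per cell cannot be told apart.

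**Figure D1:**
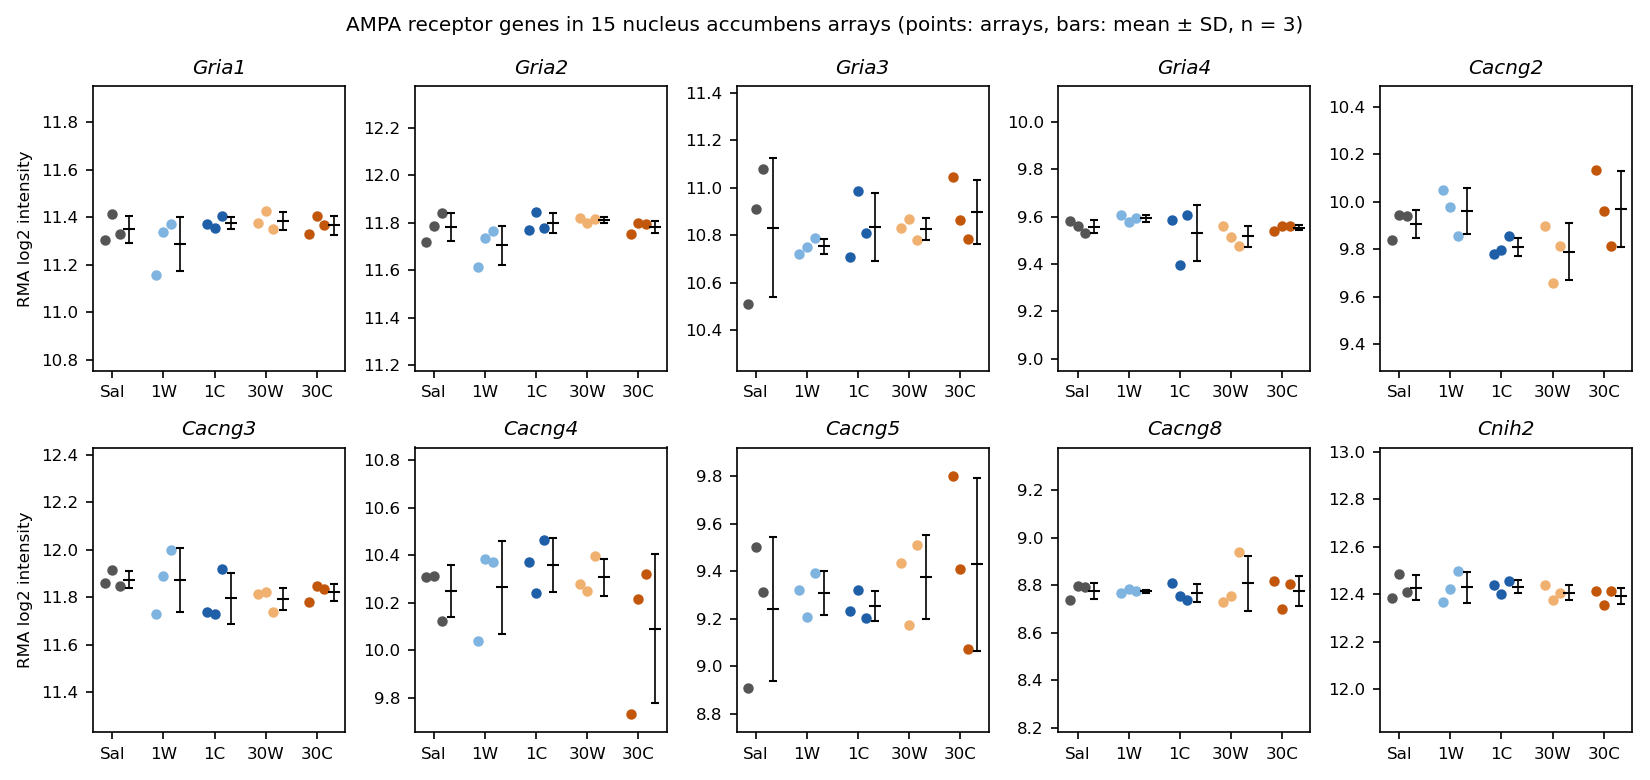
RMA log2 intensity of each of the 10 genes (vertical axis, the same height of log2 units in every panel but a different start) on the 15 arrays, by group. Points are arrays and bars are mean ± SD (n = 3). The 5 groups of Gria1, Gria2, Gria4, Cacng8 and Cnih2 lie within a narrow band, while single arrays of Gria3, Cacng4 and Cacng5 stand apart, such as 9.73 for Cacng4 in 30C replicate 1.

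Gria1 encodes GluA1, the subunit whose delivery to synapses follows activity. In Sal its values were 11.30, 11.41 and 11.33, and in 1W they were 11.16, 11.34 and 11.37. In 1C they were 11.37, 11.35 and 11.40, in 30W 11.37, 11.42 and 11.35, and in 30C 11.33, 11.40 and 11.36. The groups overlapped in all comparisons, and only 1W replicate 1 lay below 11.30. The means rose in the order 1W (11.29 ± 0.11, SD, n = 3), Sal (11.35 ± 0.06), 30C (11.37 ± 0.04), 1C (11.38 ± 0.03) and 30W (11.38 ± 0.04), and no neighbours in that order were separated. The model gave 8 comparisons of 2 groups, without 30C against 1W and 30W against 1C. In these 8 the differences lay between -0.06 and 0.10. Their 95% intervals together spanned -0.18 to 0.21, or 0.883-fold to 1.16-fold, so any larger difference in these comparisons lies outside the intervals.

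Gria2 encodes the subunit that restricts calcium entry. Its values were 11.72, 11.79 and 11.84 in Sal, 11.61, 11.74 and 11.77 in 1W, and 11.77, 11.85 and 11.78 in 1C. In 30W they were 11.82, 11.80 and 11.81, and in 30C 11.75, 11.80 and 11.80. The lowest array was again 1W replicate 1. All 3 arrays of 30W lay above all 3 of 1W, with means of 11.81 ± 0.01 and 11.71 ± 0.08 (SD, n = 3). The difference was 0.11 (SE 0.05) with an unadjusted p of 0.045, a level that 10.1% of all genes reached in this comparison, and it did not pass adjustment (limma, adjusted p = 0.49). Without 1W replicate 1 it was 0.06, and with each array centred on its median it was 0.07. Of the cell-type marker lists, scored as the mean deviation of the measured markers, 2 were also separated between 1W and 30W. The cortical, medium spiny, interneuron, oligodendrocyte, astrocyte, endothelial and choroid or ependymal scores overlapped. Of all genes, 16.0% were separated in this comparison. The microglia score (12 of 12 markers) was 0.02 to 0.20 in 1W and -0.10 to -0.04 in 30W, and the oligodendrocyte precursor score (8 of 9) 0.02 to 0.11 and -0.10 to -0.03. Replicate 1 of 1W had the highest microglia (0.20), oligodendrocyte (0.22) and interneuron (0.39) scores of the 15 arrays. The part of these scores, and of the shift in the arrays' low percentiles between days 1 and 30, in the Gria2 value was not tested. The 3 arrays of 1C also lay above those of 1W, by 0.09 (SE 0.05, limma adjusted p = 1). Over the 8 comparisons of 2 groups the 95% intervals of Gria2 spanned -0.18 to 0.21, or 0.881-fold to 1.16-fold.

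The difference between Gria1 and Gria2 was followed within each array, where a shift common to both cancels. Probe sets differ in how brightly they bind, so only its change between groups is of use and not its size. Log2 Gria1 minus log2 Gria2 was -0.42, -0.38 and -0.51 in Sal, -0.46, -0.40 and -0.40 in 1W, and -0.40, -0.49 and -0.38 in 1C. It was -0.45, -0.37 and -0.46 in 30W and -0.43, -0.39 and -0.43 in 30C. The groups overlapped throughout, with means of -0.44 ± 0.07 (Sal), -0.42 ± 0.03 (1W), -0.42 ± 0.06 (1C), -0.43 ± 0.05 (30W) and -0.42 ± 0.02 (30C; SD, n = 3 each). Between the 6 arrays of 30 days and the 6 of 1 day the difference was -0.0029 (exact permutation test within test and no-test strata, two-sided, p = 0.91). Between tested and untested rats it was 0.0024 (exact permutation p = 0.955), and between the 12 cocaine arrays and the 3 Sal arrays 0.014 (exact permutation p = 0.653). Adjusted over these 3 tests, each exact permutation p became 0.955. The designs could have given p as low as 0.005, 0.005 and 0.0022.

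**Figure D2:**
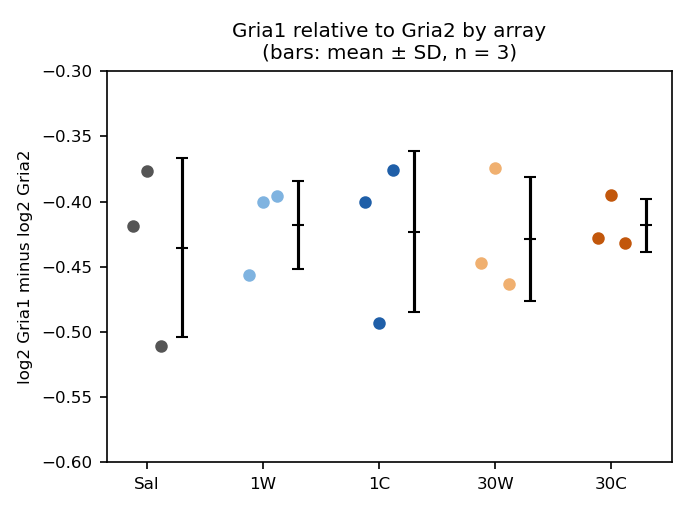
Log2 Gria1 minus log2 Gria2 (vertical axis, which does not reach 0) on each array, by group; bars are mean ± SD (n = 3). The group means lie between -0.44 and -0.42, and the 3 arrays of Sal alone cover -0.51 to -0.38.

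Gria3 encodes GluA3, which assembles with GluA2. Its values spread more within groups than those of the other subunit genes: 10.51, 10.91 and 11.08 in Sal, 10.72, 10.75 and 10.79 in 1W, and 10.71, 10.99 and 10.81 in 1C. In 30W they were 10.83, 10.87 and 10.78, and in 30C 11.05, 10.86 and 10.78. Both the lowest and the highest of the 15 arrays were Sal arrays, replicates 1 and 3, a 1.48-fold range. The group means lay between 10.75 ± 0.03 (1W) and 10.90 ± 0.14 (30C; SD, n = 3), and every pair of groups overlapped. The 95% intervals over the 8 comparisons spanned -0.33 to 0.33. These leave out 30C against 1W, whose means were the farthest apart.

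Gria4 encodes GluA4, a subunit of fast receptors of interneurons in many regions. Its 15 arrays ran from 9.39 (1C replicate 2) to 9.61 (1C replicate 3), and the group means from 9.52 ± 0.04 in 30W to 9.59 ± 0.01 in 1W (SD, n = 3). The 3 arrays of 30W (9.56, 9.51 and 9.47) lay below the 3 of 1W (9.61, 9.58 and 9.59), a difference of -0.08 (SE 0.05) that did not pass (limma, adjusted p = 0.65). The 95% intervals over the 8 comparisons of 2 groups spanned -0.19 to 0.15.

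Among the TARPs, Cacng2 had 2 of the 3 unadjusted p-values under 0.05. It encodes stargazin, the protein lacking in the stargazer mouse. Its values were 9.84, 9.94 and 9.94 in Sal, 10.05, 9.98 and 9.86 in 1W, 9.78, 9.80 and 9.85 in 1C, 9.90, 9.66 and 9.82 in 30W, and 10.13, 9.96 and 9.81 in 30C. At 1 day the arrays of tested rats were lower than the untested, with no overlap by a narrow margin, a difference of -0.15 (SE 0.08, limma adjusted p = 1). At 30 days the tested rats were higher on average, 9.97 ± 0.16 against 9.79 ± 0.12 (SD, n = 3), and the groups overlapped. That difference was 0.18 (SE 0.08), with an unadjusted p of 0.044, reached by 3.93% of all genes, and limma's adjusted p was 0.999. The interaction, the test's difference at 30 days minus that at 1 day, was 0.33 (SE 0.11) with an unadjusted p of 0.012. In the interaction 3.03% of all genes had an unadjusted p under 0.05, and Cacng2 did not pass adjustment (limma, adjusted p = 0.999). Leaving out 30C replicate 1 brought the interaction to 0.25 and the difference at 30 days to 0.10. Cacng2 also had the smallest adjusted p of the members in the F test over the 5 groups, 0.783.

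Cacng3, a TARP abundant in cerebral cortex, had group means from 11.79 ± 0.05 in 30W to 11.87 ± 0.03 in Sal (SD, n = 3). The Sal arrays (11.86, 11.91 and 11.85) lay just above those of 30W (11.81, 11.82 and 11.74) and of 30C (11.78, 11.85 and 11.84). The differences were -0.08 (SE 0.07) for 30W and -0.05 (SE 0.07) for 30C, and neither passed (limma, adjusted p = 0.837 and 1.00).

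Cacng4 encodes a TARP known for its expression in developing brain and in the striatum. It was 10.31, 10.31 and 10.12 in Sal, 10.04, 10.38 and 10.37 in 1W, 10.37, 10.24 and 10.46 in 1C, 10.28, 10.25 and 10.40 in 30W, and 9.73, 10.21 and 10.32 in 30C. One array, 30C replicate 1, was the lowest of the 15, and 1W replicate 1 the next. The 30C mean, 10.09 ± 0.31, was below the 1C mean, 10.36 ± 0.11 (SD, n = 3), and the groups overlapped. The difference of -0.27 (SE 0.13), the largest of any member between 2 groups, did not pass (limma, adjusted p = 0.899), and without 30C replicate 1 it was -0.09.

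Cacng5 belongs to the type II TARPs, which modulate channel gating more than delivery. It gave 8.91, 9.50 and 9.31 in Sal, 9.32, 9.21 and 9.39 in 1W, 9.23, 9.32 and 9.20 in 1C, 9.44, 9.17 and 9.51 in 30W, and 9.80, 9.41 and 9.07 in 30C. The lowest array was Sal replicate 1 and the highest 30C replicate 1, 1.86-fold apart, and 30C and Sal each held both high and low arrays. Its 95% intervals over the 8 comparisons were the widest of the members, -0.41 to 0.55, so a change of 1.46-fold lies at their edge.

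Cacng8 and Cnih2 varied least between groups. Cacng8 encodes a TARP best known from hippocampal receptors, and its group means ran from 8.77 ± 0.04 (1C) to 8.81 ± 0.11 (30W; SD, n = 3). The 15 arrays lay between 8.70 and 8.94, the last being 30W replicate 3. Cnih2 encodes cornichon 2, which slows receptor deactivation and acts alongside TARPs. Its group means ran from 12.39 ± 0.03 (30C) to 12.43 ± 0.03 (1C; SD, n = 3), and its 15 arrays from 12.35 to 12.50. The range of the 5 group means was 0.04 for each gene, against a median of 0.12 over all genes tested. The 95% intervals of Cnih2 spanned -0.14 to 0.10, or 0.91-fold to 1.07-fold, the narrowest of the members.

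The 200 bases from 250 to 51 bases upstream of the RefSeq start are shown for Cacng8 and Cnih2, whose group means varied least (assembly GRCr8). They lie on the minus strand of chromosome 1, at chr1:74691054-74691253 for Cacng8 and chr1:211834488-211834687 for Cnih2, outside the annotated span of the gene. Capitals mark a GC box, GGGCGG on either strand.
Cacng8: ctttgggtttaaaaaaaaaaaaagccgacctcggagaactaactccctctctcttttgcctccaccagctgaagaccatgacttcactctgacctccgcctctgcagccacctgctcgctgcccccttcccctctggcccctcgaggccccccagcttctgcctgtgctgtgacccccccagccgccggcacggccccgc
Cnih2: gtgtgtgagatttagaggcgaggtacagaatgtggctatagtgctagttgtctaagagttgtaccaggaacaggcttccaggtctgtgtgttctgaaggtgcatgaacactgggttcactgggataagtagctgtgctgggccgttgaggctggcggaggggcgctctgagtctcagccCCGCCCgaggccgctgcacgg
The Cacng8 stretch was 62.0% G and C and held 0 such boxes, and the Cnih2 stretch was 57.0% and held 1. Over all 33469 such stretches in the table, the median was 51.0% and 24.2% held the box. The other members with an entry were Gria4 (57.5%), Cacng2 (35.5%), Cacng3 (65.5%, with 1 box) and Cacng5 (49.5%). Their stretches did not lie clear of the annotated span of the gene and are not shown. A match of letters is a description of the sequence and was not measured here as a bound site.

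The counts of members whose groups did not overlap stood beside the share of all genes that did the same. Against Sal, 0 of 10 members were separated in 1W (8.09% of all genes) and 0 in 1C (7.18%). In 30W 1 member, Cacng3, was separated from Sal (13.7% of all genes), and in 30C the same gene (8.41%). For 1C against 1W there were 2, Gria2 and Cacng2 (7.86%), and for 30C against 30W 0 (8.38%). For 30W against 1W there were 2, Gria2 and Gria4, where 16.0% of all genes did so, and for 30C against 1C 0 (9.69%). With 10 genes, counts of 0 to 2 are near these shares. In all 40 pairs of groups that neighbour each other in a member's order of means, the ranges of the arrays overlapped. The median difference over the members lay between -0.01 and 0.04 across the 12 comparisons, and over all genes between -0.02 and 0.01. The comparisons with Sal share its 3 arrays, and each 30W and 1W comparison shares arrays with others.

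**Figure D3:**
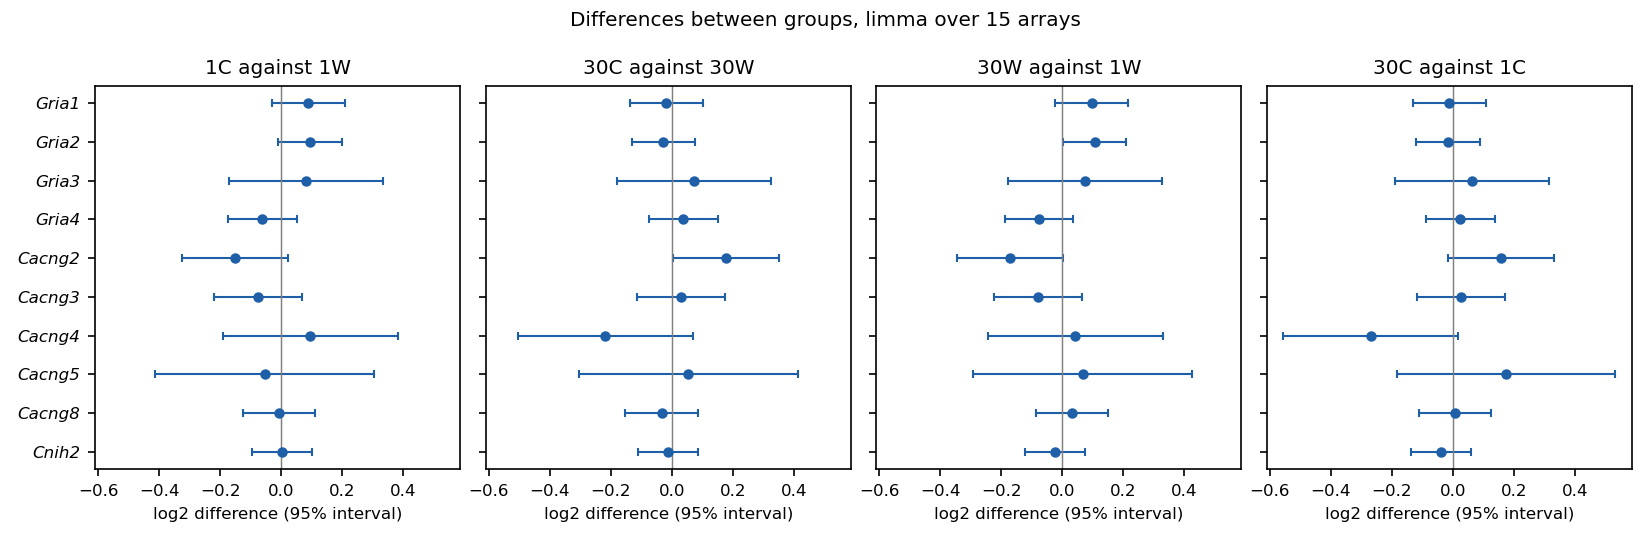
Log2 differences (horizontal axis) of the 10 genes for the extinction test at each withdrawal time and for withdrawal length with and without the test, from limma over 15 arrays; points are estimates and bars 95% intervals, not adjusted for the number of genes. Intervals of Cnih2 and Gria2 are short, those of Cacng4 and Cacng5 long, and the intervals of Gria2 for 30W against 1W and of Cacng2 for 30C against 30W lie just above 0.

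The members also differed in their spread within groups. Ranked among all genes tested, the within-group SD of Cnih2 was at percentile 6.92, Gria2 at 10.9, Gria4 at 17.8, Cacng8 at 22.9 and Gria1 at 23.3. Cacng3 stood at 45.6 and Cacng2 at 66.0. Gria3 (89.6), Cacng4 (93.2) and Cacng5 (96.1) were among the more variable genes of the array. The median SD was 0.07 over the members and 0.09 over all genes tested.

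**Figure D4:**
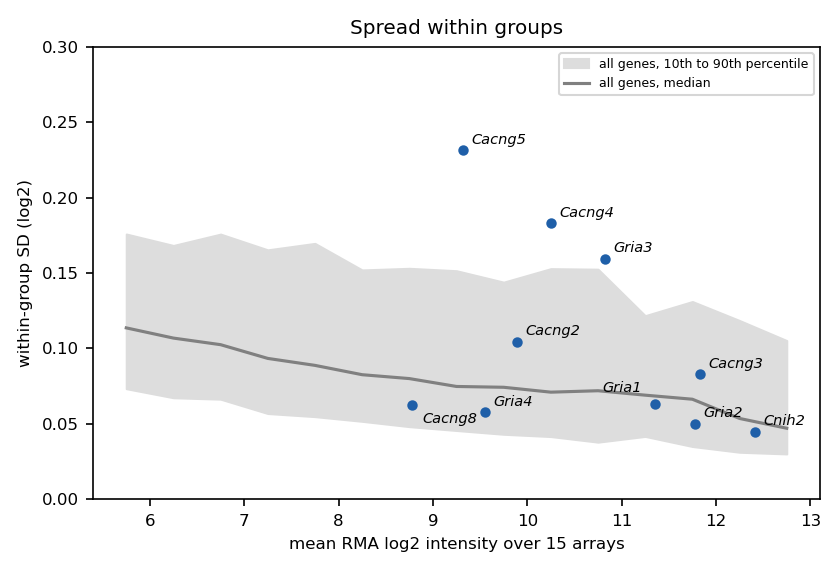
Pooled within-group SD in log2 units (vertical axis, from 0) against mean RMA log2 intensity over 15 arrays (horizontal axis) for the 10 genes; the line is the median and the band the 10th to 90th percentile of all genes at that intensity. Cacng5, Cacng4 and Gria3 lie above the band, and Cnih2, Gria1, Gria2, Gria4 and Cacng8 lie below the median line.

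The 3 most variable members moved with cell-type markers across the 15 arrays. A cortical score was taken as the mean deviation of the 10 measured genes of 16 listed cortical projection neuron markers, and a medium spiny score from 16 of 20 listed markers. The cortical score ran from -1.08 to 0.64 in Sal, -0.48 to 0.18 in 1W, -0.36 to 0.33 in 1C, -0.02 to 0.10 in 30W and -0.61 to 0.95 in 30C, and the spiny score from -0.45 (30C replicate 1) to 0.28 (1W replicate 3). Gria3 followed the cortical score (Pearson r = 0.85, n = 15, permutation p = 8e-05, adjusted over 20 relations 8e-04). Its Spearman rho was 0.67 (permutation p = 0.0068, adjusted 0.068), and r was 0.69 without Sal replicate 1 and 30C replicate 1 and 0.88 with the group means removed. Cacng5 did likewise (r = 0.76, permutation p = 0.0012, adjusted 0.0081; rho = 0.58, permutation p = 0.024, adjusted 0.108), but without those 2 arrays r was 0.40, so the relation rests on them.

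Cacng4 followed the medium spiny score (r = 0.91, n = 15, permutation p = 3e-05, adjusted 6e-04; rho = 0.81, permutation p = 0.00055, adjusted 0.011). Without 30C replicate 1 and 1W replicate 1 its r was 0.70, and with the group means removed 0.94. The 2 scores themselves were inversely related across arrays (r = -0.59). Among the other members, r with the cortical score was -0.06 for Gria1 (permutation p = 0.806), 0.18 for Gria2 (permutation p = 0.495) and -0.01 for Cnih2 (permutation p = 0.972), with n = 15 each. With the medium spiny score, r was 0.52 for Gria1 (permutation p = 0.0674, adjusted 0.15; 0.70 with the group means removed) and 0.29 for Gria2 (permutation p = 0.271, adjusted 0.417). For Cnih2 it was 0.48 (permutation p = 0.0675, adjusted 0.15), with rho = 0.59 (permutation p = 0.0227, adjusted 0.108). Cacng2 had r = 0.53 with the cortical score (permutation p = 0.0417, adjusted 0.119; 0.72 with the group means removed). With the spiny score its r was -0.56 (permutation p = 0.0325, adjusted 0.108), and 0.07 without 30C replicate 1 and 1W replicate 1. Cacng4 had r = -0.62 with the cortical score (permutation p = 0.0166, adjusted 0.083). Cacng3 had r = 0.56 with the spiny score (permutation p = 0.0304, adjusted 0.108). No other relation passed adjustment. With the cortical score as a covariate no member passed in any comparison. Over all genes, 1 then passed in each of 30C against 30W, 30C against 1C, 30 days against 1 day and test against no test. In the other comparisons 0 passed. The SE of the Gria3 difference between 2 groups was 0.065 with the covariate, against 0.12 without it. The Cacng2 interaction was then 0.33 (SE 0.09), with limma's unadjusted p = 0.0024 and adjusted p = 0.999. Cacng2 also had limma unadjusted p-values of 0.025 in 1C against 1W, 0.016 in 30C against 30W, 0.011 in 30W against 1W and 0.037 in 30C against 1C. In all, 7 of the 120 member values had an unadjusted p under 0.05 with the covariate. The share of all genes doing so was not counted. The part of tissue composition in the spread of each group was not tested further.

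**Figure D5:**
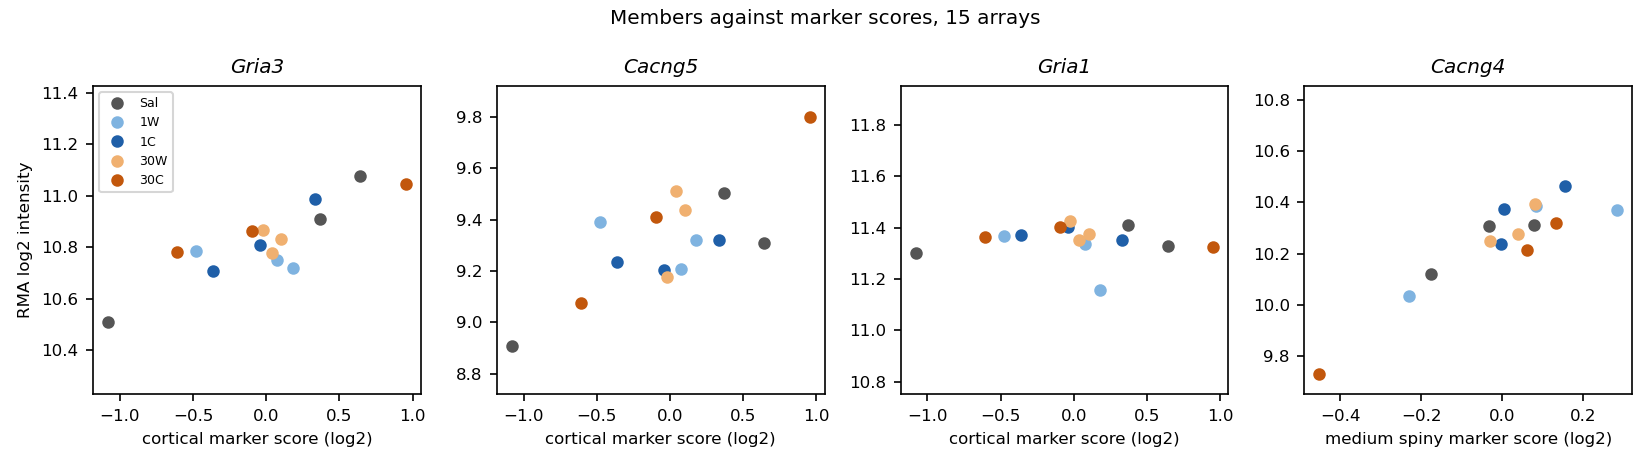
RMA log2 intensity (vertical axis) of Gria3, Cacng5 and Gria1 against the cortical marker score and of Cacng4 against the medium spiny marker score (horizontal axes, log2 units); each point is 1 of the 15 arrays, coloured by group. Gria3 and Cacng5 rise with the cortical score from Sal replicate 1 at -1.08 to 30C replicate 1 at 0.95, Gria1 does not, and Cacng4 is lowest at the lowest spiny score, -0.45.

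Between members, none of the 45 correlations over the 15 arrays passed adjustment over the pairs. Gria2 with Gria4 had the largest Spearman rho in size (-0.72, permutation p = 0.0034, adjusted 0.152), with r = -0.61 (permutation p = 0.0344, adjusted 0.258) and r = -0.67 without 1W replicate 1 and Sal replicate 1. Cacng2 with Cacng4 had the smallest permutation p of a Pearson r (r = -0.66, p = 0.0082, adjusted 0.184; rho = -0.40, permutation p = 0.141, adjusted 0.534), and r was -0.59 without 30C replicate 1 and 30W replicate 2. Gria1 with Gria2 had the largest Pearson r (0.76, permutation p = 0.0105, adjusted 0.184; rho = 0.39, permutation p = 0.147, adjusted 0.534), but r was 0.03 without 1W replicate 1 and Sal replicate 1. The neighbouring genes Cacng4 and Cacng5 had r = -0.55 (permutation p = 0.0443, adjusted 0.261; rho = -0.25, permutation p = 0.361, adjusted 0.642), and r was -0.07 without 30C replicate 1 and 1W replicate 1. In the RefSeq table Cacng4 lies between Cacng1 and Cacng5, and Cacng8 between Cacng6 and Cacng7. The genes whose values were most like those of Gria1 over the 15 arrays were Scaf4 (r = 0.90), Slc38a6 (0.87) and Arid3a (0.87). For Gria2 they were C4bpa (0.86), Cubn (0.83) and Cnksr2 (0.82), each chosen as the highest of all genes tested.

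Other genes of the AMPA receptor pathway also gave 0 changes past the threshold in either direction in all 12 comparisons. Of 24 other auxiliary and secreted partners, 16 were measured, and 0 of their 192 values had an unadjusted p under 0.05 in limma. Those with the smallest p in the averaged comparisons were Cnih1, a cornichon, in cocaine against Sal (0.09, SE 0.04), Lrrtm4, a postsynaptic adhesion protein, in test against no test (0.07, SE 0.04), and Porcn, an acyltransferase that binds the receptor, in 30 days against 1 day (-0.09, SE 0.05). Their limma adjusted p-values were 1.00, 0.999 and 0.443.

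Of 28 trafficking and scaffold genes, 25 were measured. Of their 300 values, 13 (4.33%) had an unadjusted p under 0.05, against 5.81% over all genes. Myo5b, a motor of recycling endosomes, had a difference of -0.13 (SE 0.04) between cocaine and Sal, with limma's adjusted p = 0.916. Grip2, a scaffold that binds GluA2, had 0.12 (SE 0.05) between 30 days and 1 day (limma, adjusted p = 0.322). Stx4, a fusion protein of spines, had -0.11 (SE 0.05) between test and no test (limma, adjusted p = 0.999).

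Among kinases and phosphatases acting on the receptor, 14 of 15 were measured, with 0 of 168 values at an unadjusted p under 0.05 in limma. Prkacb, a catalytic subunit of protein kinase A, had -0.09 (SE 0.04) between 30 days and 1 day (limma, adjusted p = 0.386), Ppp3cb, a calcineurin subunit, 0.07 (SE 0.05) in the same comparison (limma, adjusted p = 0.553), and Prkca, protein kinase C alpha, 0.06 (SE 0.04) between test and no test (limma, adjusted p = 0.999).

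All 3 RNA editing genes were measured, and 1 of their 36 values had an unadjusted p under 0.05. It was Adarb2, with -0.16 (SE 0.08) between 30 days and 1 day (limma, adjusted p = 0.377), a comparison in which 1531 of the 11778 genes had an unadjusted p under 0.05. Adarb1, which encodes the enzyme that edits the GluA2 transcript, had -0.09 (SE 0.05) between test and no test, and Adar 0.02 (SE 0.03), each with limma's adjusted p = 0.999. Of 10 kainate and delta receptor genes, 9 were measured, and 9 of 108 values (8.33%) had an unadjusted p under 0.05, against the 5.81% of all genes. Of the 9, 2 fell in 30W against 1W (10.1% of all genes) and 2 in 30 days against 1 day (1531 of the 11778 genes). A further 2 fell in 30W against Sal (7.60%). The rest were 1 each in 30C against Sal (5.06%), 30C against 30W (3.93%) and cocaine against Sal (4.33%). Grid2ip (0.14, SE 0.05, cocaine against Sal), Grid1 (-0.08, SE 0.04, 30 days against 1 day) and Grik3 (0.14, SE 0.07, test against no test) had limma adjusted p-values of 0.989, 0.353 and 0.999.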

How the data were processed

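Gene expression was measured in 15 nucleus accumbens samples, 1 array each. The deposited table holds log2 values, which the authors obtained by RMA, per the submitters' processing notes. Software and filters are not given in the sources. RMA corrects background, quantile-normalizes arrays and summarises probe sets, so a shift common to most genes would be removed. Per the labels' protocols a kit for 3' arrays was used, but the probe set identifiers belong to a whole-transcript array. Of 28826 probe sets, the platform annotation gave 15209 a single symbol and 306 several; the other 13311 were left unnamed.

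Per gene the brightest probe set by mean over 15 arrays was used, and kept if above the array's 30th percentile on at least 3 arrays. One model with 5 groups was fitted with limma 3.58.1 in R 4.3.3 (lmFit, eBayes; residual degrees of freedom 10, prior 3.44). It gave 8 comparisons of 2 groups, withdrawal length, test, their interaction, cocaine against Sal, and an F test. P-values were two-sided and adjusted over 11778 genes. Exact permutation tests permuted array labels, within strata for withdrawal length and test, and correlations used 100000 permutations, two-sided. The fit was tested on simulated data with changes larger than any member difference seen. That test does not show how often changes of the sizes seen would be found.

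Members and gene lists were chosen with earlier results of these data known. From each other list, the 3 genes with the smallest unadjusted p in the averaged comparisons were named, and for Gria1 and Gria2 the 3 genes most correlated. Alternatives covered the filter, probe set choice, further quantile normalization or median centring, variance model, array weights, the cortical score as a covariate, the arrays fitted, the replicate number as a block, the threshold, and leaving out each array. The medium spiny score, group means removed and the 2 farthest arrays left out were added after the values were seen. Replicate numbers were not treated as pairs in the main fit. The 25th percentile of replicates 1 to 3 was 5.55, 5.59 and 5.53 in 30W and 5.54, 5.59 and 5.53 in 30C. It was 5.48, 5.50 and 5.50 in 1W, 5.49, 5.51 and 5.51 in 1C, and 5.52, 5.51 and 5.57 in Sal. Whether arrays of equal number were handled together was not tested. Promoter stretches came from RefSeq (GRCr8), which held 6 of the 10 members. The number of arrays, 3 per group, limits precision.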

Additional observations from a re-analysis of the deposited data

How the results depend on the processing

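The count of members past the threshold was 0 in each of 337 recomputed counts, over 12 comparisons and the F test, under every alternative run, and limma's smallest adjusted p of a member was 0.274. With the replicate number as a block (replicate block) the count was 0 in every comparison, and 3 member values had an unadjusted p under 0.05, as without it. Over all genes, the fit with this block gave 1 gene past the threshold in 30 days against 1 day and 0 in the other comparisons. Over 30 pairs of arrays of equal number the deviations had a median r of -0.01 (-0.63 to 0.51), and 10 pairs exceeded 0.1. Over 60 pairs of unequal number the median r was -0.01 (-0.51 to 0.60), and 21 pairs exceeded 0.1. Of 15 arrays, 6 correlated best with one of their own number. Of 3000 member values under alternatives, 191 changed sign, 8 of them from a size over 0.1: 3 with array weights, 2 without Sal replicate 1 and 3 without 30C replicate 1. Unadjusted calls among the members ranged from 1 to 9 of 120 values, the latter without 30C replicate 3. The share of all genes with an unadjusted p under 0.05 was not counted under each alternative, so these calls have no background beside them. All genes past the threshold were counted only with the cortical score as a covariate and with the block. Gria1 minus Gria2, leaving out 1 array at a time, ranged from -0.017 to 0.006 for 30 days against 1 day, -0.007 to 0.017 for the test and -0.024 to 0.043 for cocaine against Sal, so its sign was not settled in any of the 3.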
